A study of Trichoderma reesei with 6 samples.

Results

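Of 9129 gene models measured in Trichoderma reesei, 103 were abundant on xylose and at least 4 times lower on glucose, and these are described here. They were chosen by their measured levels. A member averaged 200 FPKM or more over the 3 xylose libraries and 1 FPKM or more over the 3 glucose libraries, with a ratio of the means of at least 4 and a lowest xylose library above its highest glucose library. FPKM divides a model's fragments by its length and by the library total, to allow levels to be compared between models of different length. How well this holds for the shortest models was not tested. Models on scaffolds 7, 29 and 33 were left out, among them 5 that met the other limits. The contrast between the sugars chose the members, so it is given as a description and was not tested for them.

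The xylose group was hyphae of strain HJ48 fermenting xylose without air, and the glucose group was hyphae of the same strain fermenting glucose without air. Each group had 3 libraries from cultures 4 days old. The title of the series calls the strains recombinant, but the labels give no allele, no parent strain and no second strain. Nothing in the labels says that the 3 libraries of a sugar came from separate cultures, so the spread between them may be technical. The libraries are bulk RNA of hyphae, in which a change in a fraction of the hyphae and a change in every hypha cannot be told apart. The library totals that the FPKM steps imply were 10739898 to 11449774 reads on xylose and 8887469 to 10102493 on glucose. At that depth the members had 1548 to 307684 reads summed over the xylose libraries and 58 to 47832 summed over the glucose libraries.

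In filamentous fungi, xylose is reduced to xylitol, oxidised to xylulose and phosphorylated before it enters the pentose phosphate pathway, whereas glucose enters glycolysis directly. In T. reesei the transcription factor Xyr1 is known as a main activator of genes for xylan and cellulose breakdown and for the first step of xylose use, and glucose is known to repress many of these genes through Cre1. The deposited table names models by gene prediction series and pairs none of them with a product. None of the names could be matched to the 9116 genes of the RefSeq table (assembly v2.0), so no role is given to any member, the labelled tissue could not be checked against marker genes, and which members belong to these pathways is not reported. Apart from 2 models, members are named below by the scaffold in their name and by the length that the FPKM steps imply.

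The members held a far larger share of expression on xylose than on glucose. Their summed FPKM made up 11.85% ± 0.0133 of the total on xylose and 1.42% ± 0.0726 on glucose (SD, n = 3). Of all reads they took 8.93% ± 0.239 on xylose and 1.24% ± 0.0455 on glucose (SD, n = 3). The share of FPKM was almost the same in the 3 xylose libraries, although many single members were not, as described below. The 2 highest members made up a larger part of it in xylose replicate 3 than in the other xylose libraries. The median member stood at 416, 399 and 342 FPKM in the xylose libraries and at 53.0, 55.4 and 46.1 FPKM in the glucose libraries. By rank, which no scaling of a library changes, the median member was 285th, 298th and 347th of the 9129 models in xylose replicates 1, 2 and 3. In glucose replicates 1, 2 and 3 its rank was 1253, 1240 and 1349.

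Members ranged widely in both levels. On xylose 5 members averaged 2000 FPKM or more, 16 lay from 1000 to under 2000, 20 from 500 to under 1000, 25 from 300 to under 500, and 37 from 200 to under 300. On glucose 3 members averaged at least 500 FPKM, 21 lay from 100 to under 500, 29 from 50 to under 100, 38 from 10 to under 50, and 12 were under 10. The ratio of means ran from 4.01 to 417 with a median of 8.24. It was under 10 in 60 members, from 10 to under 20 in 21, and at least 20 in 22. By mean FPKM, 15 members were among the 100 highest models on xylose, while 1 was among the 100 highest on glucose.

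**Figure D1:**
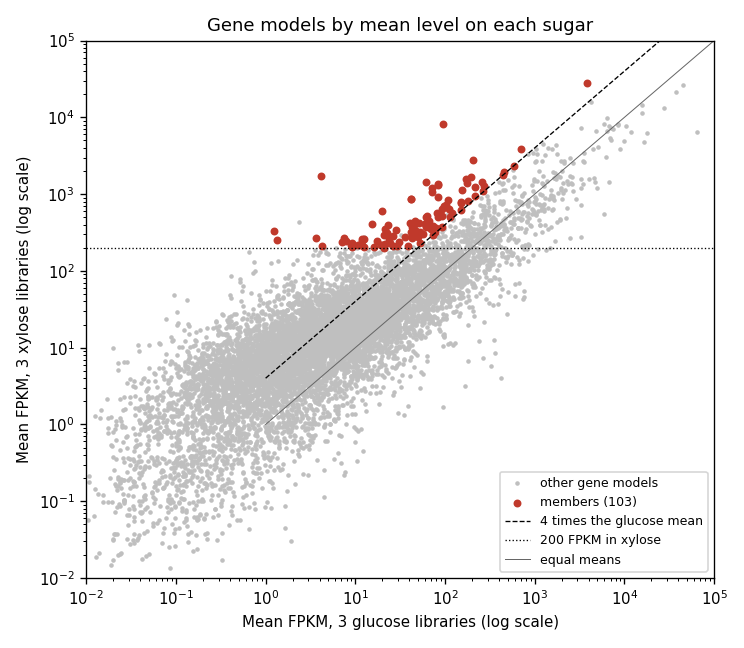
Mean FPKM of each gene model over the 3 xylose libraries (vertical, log scale) against its mean over the 3 glucose libraries (horizontal, log scale), with the 103 members in red. The lines mark 200 FPKM in xylose, 4 times the glucose mean and equal means. Models with a mean of 0 on either sugar or outside the axis limits are not drawn. The members fill the corner above both limits, from 201 to 27782 FPKM on xylose, and the few grey points among them are models on the scaffolds left out.

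Every member was called higher on xylose in the fit over all models, which the selection made likely. Of the 7766 models averaging 1 FPKM or more over the 6 libraries, 64.8% were called higher and 14.1% lower by limma on log2(FPKM + 1) at a Benjamini-Hochberg adjusted p under 0.05. All 103 members were among those called higher and 0 among those called lower. The lowest xylose library lay above the highest glucose library in 66.2% of the 7766 models and, by the rule, in all members. As a difference of log2(FPKM + 1) values between xylose and glucose, the median log2 fold change was 2.96 in the members and 1.10 over all tested models.

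The size of the rise, and the number of models that meet the limits, rested on how libraries are scaled. FPKM divides by the library total, and most models were higher on xylose on that scale. After scaling by the median of ratios, which sets the typical model level between libraries, 2980 models were called higher and 2721 lower, against 5035 and 1095 with FPKM as deposited. The median log2 fold change was then 1.76 in the members and 0.10 over all tested models. All 103 members had each xylose library above each glucose library on that scale too, which their selection made likely. The share of all tested models without overlap was not counted on that scale. The members' ratios of means then ran from 1.73 to 192 with a median of 3.55. The same limits, with the level limit kept at 200 FPKM, were met by 18 models after that scaling, and all 18 were members. A ratio of at least 4, whatever the level, was kept by 44 members. With quantile normalization the limits were met by 89 models, 86 of them members. With each library scaled to the same FPKM sum (TPM) they were met by 137 models, among them all 103 members. That scaling raised the values of every library, so the level limit of 200 was looser on it.

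The first 2 members by level were short models. The highest was e_gw1.42.18.1, a model of 288 nt on scaffold 42. It had 27511, 25564 and 30271 FPKM in xylose replicates 1, 2 and 3, and 4142, 3742 and 3485 FPKM in glucose replicates 1, 2 and 3. It was thus the highest model of the whole table on xylose and already the 34th on glucose, with a ratio of means of 7.33 and groups far apart. The second was a 255-nt model on scaffold 5, with 5575, 6635 and 12522 FPKM on xylose and 86.5, 116 and 82.4 FPKM on glucose. Its xylose replicate 3 was about double the others, and its ratio of means was 86.7. These 2 models held 33.2%, 32.8% and 41.8% of the members' summed FPKM in the xylose libraries, against 32.2%, 30.3% and 30.3% in the glucose libraries.

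A further 3 members reached 2000 FPKM or more on xylose, and their glucose levels were not low. A 2348-nt model on scaffold 22 had 3239, 4203 and 4209 FPKM on xylose and 715, 722 and 685 FPKM on glucose. A 963-nt model on scaffold 5 had 2577, 2304 and 3384 FPKM on xylose and 159, 279 and 174 FPKM on glucose. An 1180-nt model on scaffold 8 had 2391, 2165 and 2502 FPKM on xylose and 562, 705 and 491 FPKM on glucose. By the rule none of these 3 overlapped between sugars, but their ratios of means differed, at 5.49, 13.5 and 4.01 in that order. By reads rather than FPKM the order of the members changed, since long models collect more reads. The 2348-nt model then came first with 307684 reads over the xylose libraries, ahead of e_gw1.42.18.1 with 269110, and the 255-nt model on scaffold 5 came 9th with 71177.

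**Figure D2:**
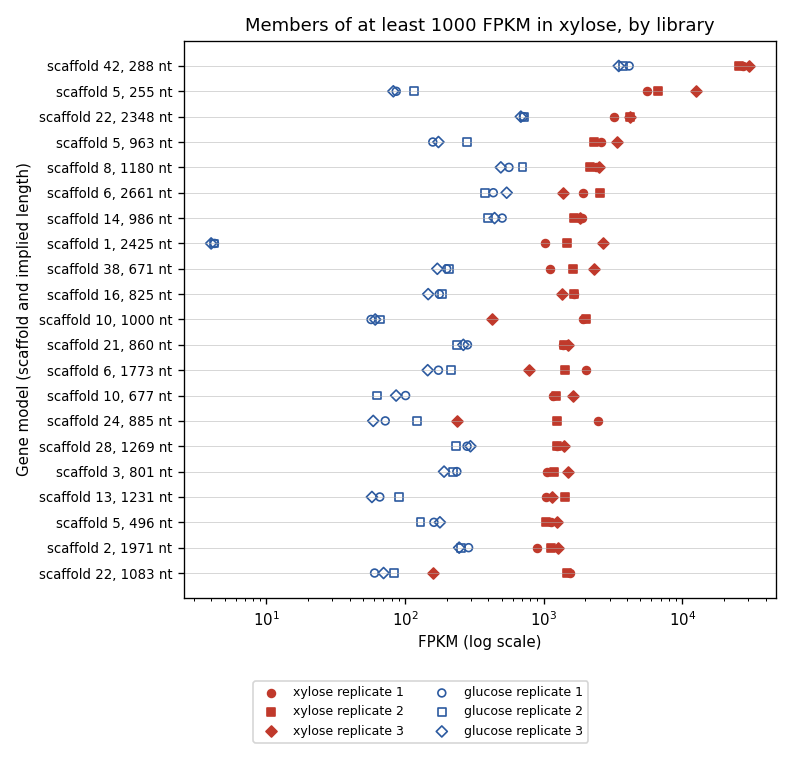
FPKM (horizontal, log scale) of the 21 members with a mean of at least 1000 FPKM on xylose, 1 row per model from the highest mean down. Filled red symbols are the 3 xylose libraries and open blue symbols the 3 glucose libraries. Rows for scaffold 10 (1000 nt), scaffold 24 (885 nt) and scaffold 22 (1083 nt) show xylose replicate 3 well below the other xylose libraries.

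The largest ratios belonged to members that were low on glucose. estExt_GeneWisePlus.C_11554, a 2425-nt model on scaffold 1, had 1027, 1465 and 2686 FPKM in xylose replicates 1, 2 and 3, and 4.22, 4.20 and 4.00 FPKM in glucose replicates 1, 2 and 3. Its level varied more than 2-fold between xylose libraries and hardly at all between glucose libraries, and its ratio of means was 417. After scaling by the median of ratios its ratio was 192. A 1650-nt model on scaffold 8 had 459, 535 and 13.3 FPKM on xylose and 1.70, 1.02 and 0.989 FPKM on glucose, a ratio of 271 that rested on xylose replicates 1 and 2. A 1565-nt model on scaffold 9 had 274, 436 and 47.2 FPKM on xylose and 1.87, 0.949 and 1.17 FPKM on glucose, a ratio of 190. These last 2 models had the lowest glucose means of all members and 58 and 59 glucose reads.

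The other members with low glucose levels differed in how steady they were on xylose. A 1640-nt model on scaffold 5 had 178, 211 and 409 FPKM on xylose and 3.29, 5.25 and 2.49 FPKM on glucose. A 1980-nt model on scaffold 15 had 201, 229 and 197 FPKM on xylose and 3.64, 4.45 and 4.53 FPKM on glucose. The first of these was about 2 times higher in xylose replicate 3 than in the other xylose libraries, while in the second the libraries of each sugar lay close together at a ratio of means of 49.7. A 342-nt model, also on scaffold 15, had 265, 242 and 227 FPKM on xylose and 6.25, 9.55 and 7.75 FPKM on glucose. A 375-nt model on scaffold 3 had 358, 233 and 130.0 FPKM on xylose and 7.80, 8.71 and 4.90 FPKM on glucose, lowest in xylose replicate 3. Over the 12 members under 10 FPKM on glucose, the median ratio of the highest to the lowest xylose library was 2.40. In 8 of the 12 xylose replicate 3 was the lowest. It was also the lowest in 61.0% of all tested models, and in 75.4% of models that met the same ratio below 200 FPKM on xylose.

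The spread between the xylose libraries was not used to choose the members, apart from the limit on the lowest library. The median member had a highest xylose library 1.41 times its lowest. That was wider than in the 412 other models of at least 200 FPKM on xylose, at 1.24, and narrower than in the 1409 models that met the same ratio at a lower level, at 1.84. Over all tested models with a value above 0 in each xylose library it was 1.59. This order moved with the scaling. With the median of ratios the quantity was 1.69 in the members, 1.61 in the other abundant models, 1.51 in the models with the same ratio at a lower level and 1.49 over all tested models, so the members were then the widest of these groups. Between the glucose libraries the same quantity was 1.30 in the members, 1.20 in the other abundant models and 1.38 over the tested models. These are descriptions of the same 6 libraries and were not tested. Members with a larger ratio to glucose were also the more variable on xylose, with a median of 1.75 in the 43 members of ratio 10 or more and 1.30 in the 60 below it. The limit on the lowest library leaves more room for spread at a larger ratio, so part of this difference may come from the rule. This comparison was made only with FPKM as deposited.

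With FPKM as deposited, xylose replicate 3 was the library in which the members parted most. It was the lowest xylose library in 49 members and the highest in 41. Among the other abundant models it was the lowest in 20.6% and the highest in 54.9%. Among the models with the same ratio at a lower level it was the lowest in 75.4% and the highest in 8.45%. Over all tested models the values were 61.0% and 16.7%. Xylose replicate 1 was the highest in 65.0% of all tested models and in 31.1% of the members. The median SD of the members between xylose libraries, on the log2(FPKM + 1) scale, was 0.255. It was 0.157 without xylose replicate 3, 0.234 without replicate 1 and 0.278 without replicate 2. The order of the libraries moved with the scaling. With the median of ratios, xylose replicate 3 was the lowest in 28 members and the highest in 52. Xylose replicate 1 was then the lowest in 70 members and the highest in 18, so on that scale replicate 1 stood out as low. Over all tested models replicate 1 was then the lowest in 39.9% and the highest in 33.7%. Among the other abundant models it was the lowest in 86.2% and the highest in 4.61%, against 68.0% and 17.5% of the members. In the models with the same ratio at a lower level these values were 24.6% and 47.3%. Replicate 3 was then the highest in 87.9% of the other abundant models and in 50.5% of the members. A low replicate 1 was thus not particular to the members.

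In 11 members xylose replicate 3 lay under 0.5 times the lower of the other xylose libraries. This was 10.7% of the members, against 0.243% of the other abundant models, where it was 1 model of 412. It was 11.4% of the models with the same ratio at a lower level and 7.11% of all tested models. With the median of ratios it was 8 members, or 7.77%, against 0.243% of the other abundant models. It was then 4.47% of the models with the same ratio at a lower level and 3.00% of all tested models. A 1000-nt model on scaffold 10 had 1929, 2013 and 425 FPKM on xylose and 56.9, 65.8 and 61.0 FPKM on glucose. An 885-nt model on scaffold 24 had 2460, 1249 and 239 FPKM on xylose and 72.1, 122 and 59.0 FPKM on glucose. A 1083-nt model on scaffold 22 had 1554, 1487 and 158 FPKM on xylose and 60.4, 83.6 and 70.1 FPKM on glucose. In the last 2 of these, xylose replicate 3 was less than 2 times the highest glucose library, at 1.96 and 1.89 times, while xylose replicates 1 and 2 were each more than 10 times that glucose library. The deepest drop was that of the 1650-nt model on scaffold 8, whose xylose replicate 3 was 0.0290 times the lower of the other libraries.

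The other members with this pattern were of lower level. A 480-nt model on scaffold 48 had 498, 338 and 88.8 FPKM on xylose and 21.3, 28.3 and 17.9 FPKM on glucose. A 484-nt model on scaffold 15 had 245, 364 and 48.5 FPKM on xylose and 6.74, 14.7 and 12.4 FPKM on glucose. A 357-nt model on scaffold 23 had 210, 381 and 69.0 FPKM on xylose and 10.4, 13.0 and 8.86 FPKM on glucose. In each of these the xylose libraries remained above all glucose libraries, as the rule requires. Of the 11 members, 9 had a ratio of means of at least 10, and the median ratio of the 11 was 15.6. The rule leaves more room for such a drop in members of larger ratio. They lay on 9 scaffolds, with 2 on scaffold 10 and 2 on scaffold 22.

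In 5 members xylose replicate 3 was more than 1.5 times the higher of the other xylose libraries. They were 4.85% of the members, against 0.728% of the other abundant models. The value was 0.497% in the models with the same ratio at a lower level and 1.29% over all tested models. Under median of ratios scaling there were 12, or 11.7% of the members, against 9.22% of the other abundant models. Most of the contrast with that group was thus lost. The value was then 3.41% in the models with the same ratio at a lower level and 5.72% over all tested models. Among the 5 members were the 255-nt and 1640-nt models on scaffold 5 and estExt_GeneWisePlus.C_11554, given above. A 740-nt model on scaffold 54 had 724, 722 and 1159 FPKM on xylose and 49.7, 45.7 and 28.5 FPKM on glucose. A 627-nt model on scaffold 10 had 191, 193 and 297 FPKM on xylose and 23.5, 22.9 and 17.6 FPKM on glucose. The first 2 xylose libraries were nearly equal in both of these models. All 5 had a ratio of means of at least 10, with a median of 72.3. Xylose replicate 3 thus lay apart from the others in both directions among the members. Their summed share of FPKM was nearly equal in the 3 xylose libraries, but this rested on the 2 highest members. Those models made up 41.8% of the members' sum in replicate 3, against 33.2% and 32.8% in replicates 1 and 2. The other members together thus held less of the total in replicate 3.

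**Figure D3:**
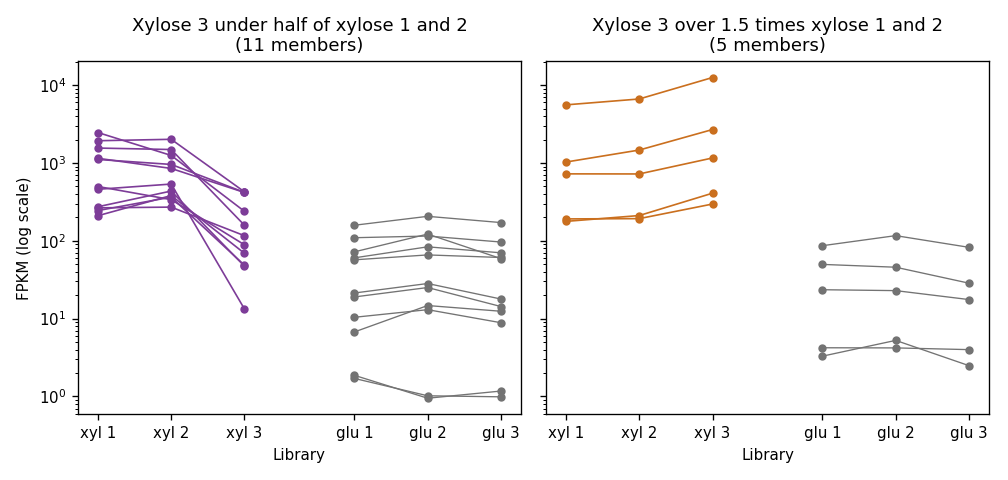
FPKM (vertical, log scale) in each library for the 11 members whose xylose replicate 3 lay under 0.5 times both other xylose libraries (left) and the 5 members whose xylose replicate 3 lay over 1.5 times both (right). Each line joins the libraries of 1 model within a sugar, with xylose in colour and glucose in grey. The order of libraries within a sugar has no meaning.

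A further 27 members kept all 3 xylose libraries within 1.25 times of each other. They made up 26.2% of the members, against 51.5% of the other abundant models. The value was 11.9% in the models with the same ratio at a lower level and 19.4% over all tested models. Only 7 members lay within 1.25 times with the median of ratios, or 6.80%, against 10.4% of the other abundant models. The value was then 19.3% in the models with the same ratio at a lower level and 21.4% over all tested models. The members thus passed from above the lower-level models and all tested models to below them. An 860-nt model on scaffold 21 had 1391, 1410 and 1490 FPKM on xylose and 282, 237 and 264 FPKM on glucose. A 2486-nt model on scaffold 34 had 326, 348 and 345 FPKM on xylose and 28.4, 28.2 and 27.8 FPKM on glucose. An 834-nt model on scaffold 2 had 557, 556 and 592 FPKM on xylose and 136, 117 and 109 FPKM on glucose. These 3 varied least between xylose libraries. The 27 steady members had smaller ratios to glucose, with a median of 6.92 against 8.24 over all members. Xylose replicate 2 could also stand apart, as in a 450-nt model on scaffold 15 with 248, 704 and 290 FPKM on xylose and 45.0, 47.3 and 47.4 FPKM on glucose.

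On glucose the members' libraries differed less. Glucose replicate 3 was the lowest glucose library in 59 of 103 members, or 57.3%. The value was 49.9% in the models with the same ratio at a lower level and 32.8% in the other abundant models. It was 41.0% in the tested models with values above 0 in every library. With the median of ratios it was the lowest in 45 members, or 43.7%, near the 41.7% of the models with the same ratio at a lower level. It was then the lowest in 18.4% of the other abundant models and 31.9% of the tested models. A 219-nt model on scaffold 9 varied most between glucose libraries among members of at least 500 FPKM on xylose, with 1511, 753 and 525 FPKM on xylose and 88.9, 127 and 34.9 FPKM on glucose.

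The members were somewhat shorter than the typical model. Their implied lengths ran from 203 to 3308 nt with a median of 986 nt, against 1106 nt in the other models of at least 200 FPKM and 1315 nt over the tested models. Models under 300 nt numbered 8, which is 7.77% of the members, against 5.10% of the other abundant models and 2.59% of the tested models. FPKM divides by length, so a level limit in FPKM admits short models at fewer reads. Names starting with estExt were carried by 63.1% of the members, by 60.9% of the other abundant models and by 40.9% of the tested models. On these measures the members lay nearer to the other abundant models than to the table as a whole.

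**Figure D4:**
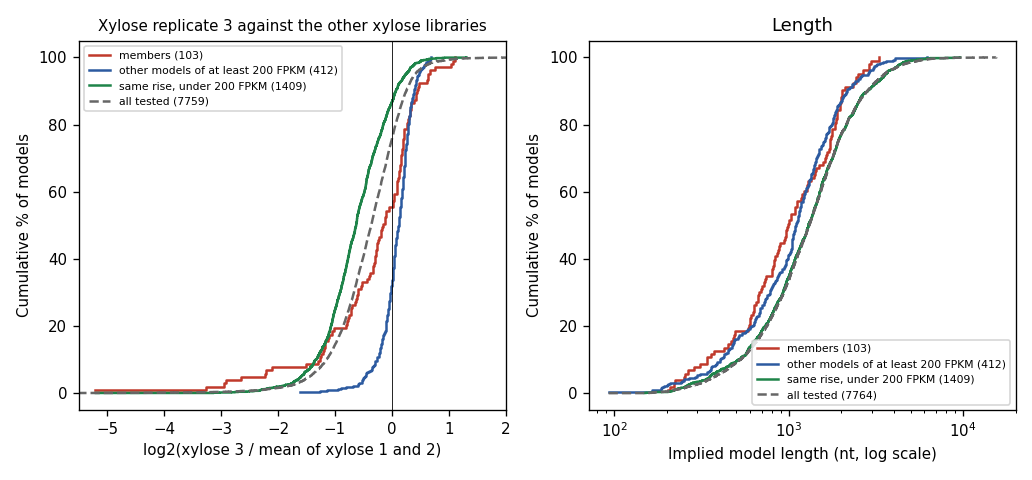
Left, cumulative percentage of models against log2 of xylose replicate 3 over the mean of xylose replicates 1 and 2, for the 103 members, the 412 other models of at least 200 FPKM on xylose, the 1409 models with the same ratio at a lower level, and all tested models with values above 0. Right, the same groups against implied model length in nt (log scale). The members' curve on the left begins far below 0, lies above that of the other abundant models over most of its range and crosses it near the top, and on the right the members' median is 986 nt.

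The members were scattered over the genome. They lay on 31 of the 49 scaffolds that held a tested model outside the left-out ones, and made up 1.42% of the 7251 tested models there. Scaffold 8 held the most, 9 members of 374 tested models, followed by scaffold 5 with 8 of 397. Scaffold 1, with 873 tested models, held 4. Of the 25 scaffolds with at least 100 tested models, 2 held no member, and the highest share was 3.60% on scaffold 22. The small scaffold 42 held 2 members among 12 tested models, e_gw1.42.18.1 and a 1123-nt model with 836, 1155 and 639 FPKM on xylose and 40.1, 38.9 and 46.1 FPKM on glucose. Counts on scaffolds this small carry little weight.

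Few members had another member close by in the numbering of their series. There were 5 pairs of members at most 10 numbers apart in 1 prediction series on 1 scaffold, and whether such numbers follow the order along the scaffold was not tested. The closest pair, 1 number apart, was on scaffold 16. Its 825-nt model had 1666, 1656 and 1368 FPKM on xylose and 177, 184 and 147 FPKM on glucose. Its 897-nt model had 547, 632 and 507 FPKM on xylose and 83.9, 80.6 and 79.3 FPKM on glucose. Both were steady within each sugar, with ratios of means of 9.23 and 6.92. On scaffold 12 a 1394-nt model with 416, 356 and 449 FPKM on xylose and 16.1, 14.6 and 15.5 FPKM on glucose was 2 numbers from a 1702-nt model with 200, 190 and 241 FPKM on xylose and 27.8, 28.0 and 23.4 FPKM on glucose. These 2 models had xylose replicate 3 as their highest library and replicate 2 as their lowest.

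Models next to members in their series changed about as much as other models of the series. In the estExt_fgenesh5_pg series, 58 models that are not members stood next to 1 of its 33 members. Their median log2 fold change was 1.19, and it was 1.36 over the 1039 models of the series that are not members. Of these 58 models 74.1% were called higher by limma, against 70.6% of the 1039. In the fgenesh5_pg series the median was 1.17 for 28 such models against 0.79 for 1458, with 57.1% and 55.3% called higher. In the estExt_GeneWisePlus series it was 1.08 for 32 models against 1.29 for 1179, with 68.8% and 71.4% called higher. Next to members the median log2 fold change was higher in 1 series and lower in the other two, while the share called higher was larger in 2 series and smaller in the remaining one.

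The limits cut through a continuous range of values. Just inside the ratio limit were a 986-nt model on scaffold 14 at 4.01 and an 1180-nt model on scaffold 8, also at 4.01. Just outside it were models on scaffolds 1 and 3 at 3.95 and 3.90. Just inside the level limit was a 1492-nt model on scaffold 12 at 201 FPKM, and just outside it were models on scaffolds 6 and 1 at 199.5 FPKM each. A further 30 models had a ratio from 3 to under 4 and met the other limits, and 128 had a xylose mean from 100 to under 200 FPKM. No model was kept out by the glucose minimum alone or by overlap between the sugars alone.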

How the data were processed

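The authors deposited FPKM values for 9129 gene models in a single table that has a column for each library. Columns were matched to libraries by the descriptions in the labels. RNA was extracted with Trizol and libraries were prepared with an NEBNext kit, per the labels' protocols. The submitters' processing notes list HTSeq 0.6.1, TopHat2 2.0.12 and Bowtie2 2.2.3 without saying what each did. Build, annotation and strandedness: not given in the sources used here. Reads of overlapping, antisense or near-identical models may be shared between them.

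Values were used as deposited. The 7766 models averaging 1 FPKM or more were fitted by sugar as log2(FPKM + 1) with limma 3.58.1 in R 4.3.3, using eBayes with a trend, a two-sided test, Benjamini-Hochberg adjustment and a threshold of 0.05. Whole reads, lengths and library totals were solved from the FPKM steps for 9008 models, 99.98% of those above 0. A length is the smallest solution and may be too short. Both steps were also run on simulated data, and the outcome is not reported here. The simulation for the fit held no shift common to most models, whereas most models here were higher on xylose. Members and groups were chosen with earlier results of these data known. The rule for naming models gives the member with the highest xylose mean and the member with the largest ratio. Models given by scaffold and length in the text were picked after their values were seen, to show each pattern. With no product names, the planned lists by product could not be filled. Other scalings, pseudocounts, filters, limits, thresholds, a replicate block and leaving out each library were tried.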

Additional observations from a re-analysis of the deposited data

How the results depend on the processing

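Scaling had the largest effect. With the median of ratios 18 models met the limits in place of 103, 2980 models were called higher and 2721 lower, the members' median log2 fold change was 1.76, their median SD between xylose libraries 0.391, and 12 members had xylose replicate 3 over 1.5 times the others. Quantile normalization gave 89 models that met the limits, 2646 higher, 2580 lower and a median of 2.66. Both scalings take out the common shift by construction. A level limit of 100 or 400 FPKM gave 231 or 50 members. The settings without 1 library gave 96 to 112 members, and median SDs of 0.157 to 0.278, the lowest without xylose replicate 3. A replicate block gave 5034 higher and 1067 lower models. The members and the 2 models named by ID were chosen on the contrast between the sugars, so their calls under other settings are no sign of stability. The deviations of equal replicate numbers correlated at 0.00085, -0.072 and 0.073, and 2 of 6 libraries correlated best with their own number. Libraries sharing a number were therefore not treated as paired. The counts by xylose replicate 3 under other scalings were added after the data were seen. Counting error is largest for the members near 1 FPKM on glucose, which had the fewest reads.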
